A study of Mus musculus with 8 samples.

Results

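The genes described here carry glucose from the blood to the mitochondrion of the heart cell. They are 33 genes, chosen by name for their role in glucose transport, glycolysis, glycogen storage and the entry of pyruvate into the mitochondrion, out of 39056 genes in the count table. RNA-seq was performed on heart samples of 4 HVCN1 null (HVCN1-/-) and 4 wild-type (WT) mice, all male and 3 months old, and the study's methods name the C57BL/6 background. HVCN1 is a voltage-gated proton channel, and no tissue-specific deletion of it is named. How the null allele was made, and whether the 2 groups were littermates, is not given in the sources used here. The hearts are numbered 1 to 4 (HVCN1 null) and 5 to 8 (WT), the numbers follow the order of deposition, and 1 library stands for 1 heart. All 33 genes were found in the table, and 32 had enough counts to be tested. The exception was Aldoc, the brain-type aldolase, with 15 counts in all in the HVCN1 null group and 22 in the WT group.

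Glucose enters heart muscle through the insulin-responsive carrier GLUT4 (Slc2a4) and the basal carrier GLUT1 (Slc2a1), is trapped by hexokinase, and is split by the glycolytic enzymes into pyruvate. Pyruvate is either reduced to lactate by lactate dehydrogenase or taken into the mitochondrion by the pyruvate carrier and converted to acetyl-CoA by the pyruvate dehydrogenase complex, which kinases switch off and a phosphatase switches on. The adult heart draws most of its energy from fatty acids, and glycolysis with use of its ATP releases protons.

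Expression is given as CPM, the counts of a gene relative to the library total, scaled by TMM in edgeR. The log2 fold change is HVCN1 null over WT from edgeR's quasi-likelihood test, with its standard error (SE), a 95% interval and a Benjamini-Hochberg adjusted p over the 14796 genes tested. A gene with an adjusted p under 0.05 is called a differentially expressed gene (DEG). Hvcn1, the deleted gene, had 16 counts in all in the HVCN1 null group and 318 in the WT group. The 10 cardiomyocyte markers were all tested and none was a DEG (2 groups of 4 hearts, summed 60255 to 73502 CPM in HVCN1 null and 61434 to 74249 CPM in WT hearts). Total counts were 25851255 to 38874640 per heart. The hearts also differed in atrial content within both genotypes, since 12 atrial markers summed to 844 to 936 CPM in hearts 1, 4, 6 and 8 and to 4286 to 10154 CPM in hearts 2, 3, 5 and 7. Myl7, the atrial myosin light chain, was at 0.169 to 33.6 CPM in the first set and at 578 to 1185 CPM in the second, so that the first set held little atrial RNA. Each of these sets holds 2 hearts of each genotype.

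None of the 32 tested genes was a DEG, against 169 of all 14796 tested genes (1.14%). By direction, 0.743% of all tested genes were DEGs higher in HVCN1 null hearts and 0.399% were lower. At an unadjusted p under 0.05 there were 2 of 32 (6.25%), Pfkfb2 and Gpd1, a share below the 11.0% of all tested genes. With edgeR's exact test, edgeR's likelihood ratio test or DESeq2 in place of the quasi-likelihood test, 1 gene, Pfkfb2, was called in each. Over all genes these tests also called more, with 367, 376 and 466 DEGs in that order, against 169. The 2 groups of values failed to overlap for 0 of the 32, against 7.06% of all tested genes. Log2 fold changes were above 0 for 19 genes and below 0 for 13, and for 23 and 9 when library sizes were not scaled. Their median was 0.02 (all tested genes, -0.01), and the median absolute change was 0.09, against 0.12 over all tested genes. In 29 of the 32 the change was smaller than 0.2 on the log2 scale.

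The intervals show how large a difference these hearts could still hide. For 28 of the 32 genes the 95% interval lay inside ±0.5 on the log2 scale, while this held for 56.5% of all tested genes. The 4 others were Gapdh, Pfkfb1, Pfkfb2 and Gpd1. Apart from Pfkfb2 and Gpd1, the adjusted p ran from 0.669 to 0.998 (edgeR quasi-likelihood). RNA from heart tissue of mixed cell types was measured, so fewer cells of a type and less RNA per cell cannot be told apart.

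**Figure D1:**
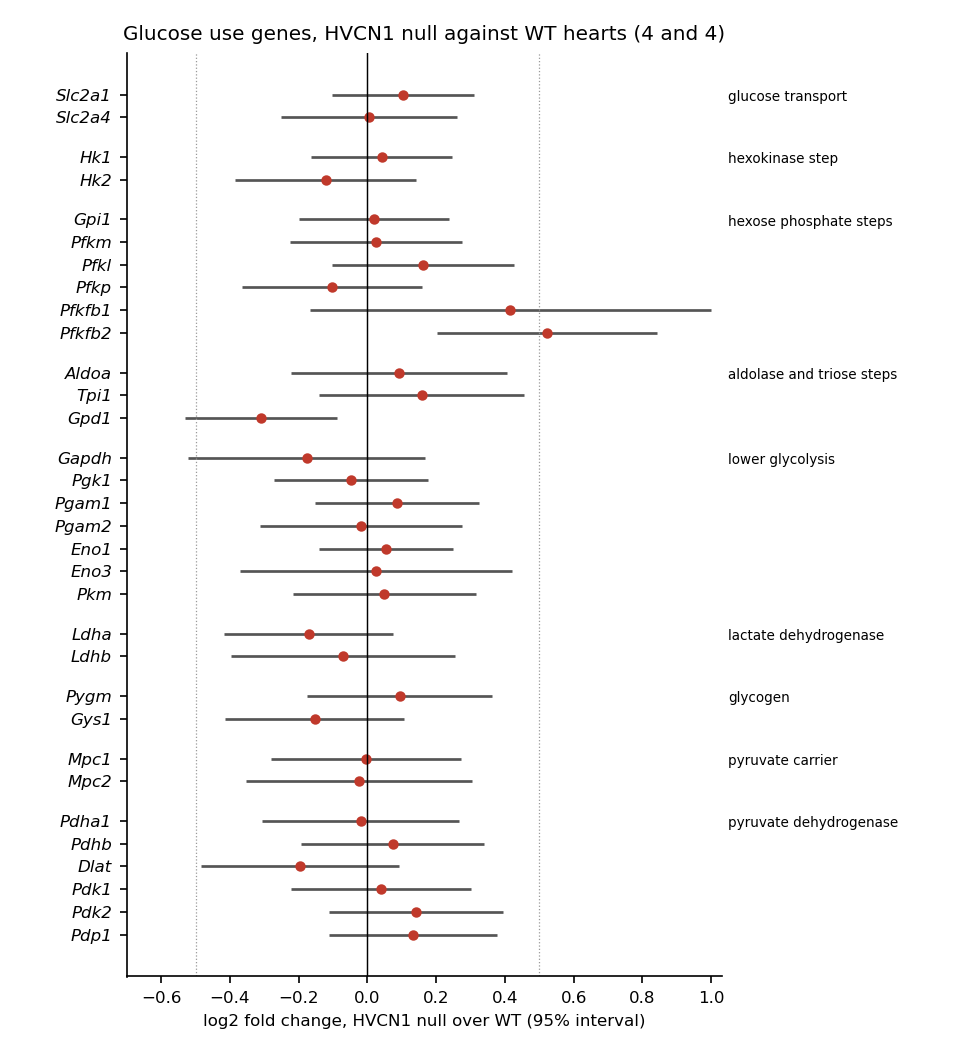
Log2 fold change, HVCN1 null over WT, with its 95% interval (horizontal axis) for the 32 tested genes of glucose use, grouped by step from transport to pyruvate dehydrogenase. The solid line is 0 and the dotted lines are -0.5 and 0.5, and the intervals of Pfkfb2 and Gpd1 alone do not include 0.

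At the entry step, the carriers of glucose had close to equal levels in both genotypes. Slc2a4 (GLUT4, ENSMUSG00000018566, chromosome 11, 69942539 to 69948188 in GRCm38) stood at 345, 356, 409 and 425 CPM in HVCN1 null hearts 1 to 4 and at 372, 416, 330.2 and 413 CPM in WT hearts 5 to 8. The ranges overlapped almost in full, and the log2 fold change was 0.004 (SE 0.12, interval -0.25 to 0.26, edgeR quasi-likelihood adjusted p = 0.998). Slc2a1 (GLUT1) stood at 19.5, 18.1, 19.5 and 17.4 CPM against 19.5, 16.1, 17.7 and 15.9 CPM. One WT heart, heart 5, was as high as the highest HVCN1 null heart, and the log2 fold change was 0.10 (SE 0.09, edgeR quasi-likelihood adjusted p = 0.812). 

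Hexokinase traps glucose as glucose 6-phosphate, and the heart carries hexokinase 1 (Hk1) and the insulin-responsive hexokinase 2 (Hk2). Hk2 was at 281, 282, 267 and 302 CPM in HVCN1 null hearts and at 266, 317, 277 and 370.4 CPM in WT hearts. The highest value was that of WT heart 8 and the lowest that of WT heart 5, so the HVCN1 null hearts lay within the WT range (log2 fold change -0.12, SE 0.12, edgeR quasi-likelihood adjusted p = 0.836). Without WT heart 8 the log2 fold change was -0.014. Hk1 had 231 ± 18.0 CPM against 224 ± 9.70 CPM (SD, n = 4 each).

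Phosphofructokinase commits sugar to glycolysis, and its muscle form Pfkm leads in the heart. Pfkm was measured at 822, 906, 991 and 1018 CPM in HVCN1 null hearts and 854, 937, 857 and 1025 CPM in WT hearts, with overlap over most of the range (log2 fold change 0.03, SE 0.11, edgeR quasi-likelihood adjusted p = 0.979). The liver form Pfkl and the platelet form Pfkp had log2 fold changes of 0.16 and -0.10, and glucose-6-phosphate isomerase (Gpi1), the step before, had 0.02.

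Among the activators of this step was the gene nearest to a call. The bifunctional enzymes PFK-2/FBPase-2 make and break fructose 2,6-bisphosphate, the strongest known activator of phosphofructokinase, and Pfkfb2 encodes the heart isoform, which insulin and adrenaline signals activate. Pfkfb2 (ENSMUSG00000026409, chromosome 1, 130689182 to 130729253) stood at 67.4, 51.1, 43.9 and 48.5 CPM in HVCN1 null hearts and at 35.0, 32.4, 35.1 and 44.4 CPM in WT hearts. Heart 1 was the highest of all, and the groups overlapped only through HVCN1 null heart 3, which lay just under WT heart 8. The means were 52.7 ± 10.2 and 36.7 ± 5.29 CPM (SD, n = 4 each), which gave 0.52 as the log2 fold change (SE 0.14, interval 0.20 to 0.84, edgeR quasi-likelihood adjusted p = 0.157). The difference in mean CPM, 16.0, had an exact p of 0.0571 (two-sided permutation, all 70 ways to assign the 8 hearts, which cannot give a p under 0.0286).

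The call on Pfkfb2 depended on the test, and the tests that called it also called more genes over all. Its adjusted p was 0.0488 with edgeR's exact test, 0.0472 with edgeR's likelihood ratio test and 0.0225 with DESeq2, and it ran from 0.104 to 0.408 with each heart left out of the quasi-likelihood test. Without HVCN1 null heart 1 the log2 fold change was 0.38 (edgeR quasi-likelihood adjusted p = 0.275). The annotated exons of Pfkfb2 share 17.4% of their length with Gm29427 and 2.12% with Yod1, whose mean CPM were 0.551 and 5.98. The kit keeps strand and the strand setting of the counting is not stated, so a part of the count in these stretches is uncertain. Pfkfb1, the liver and muscle isoform, had 14.3 ± 5.64 CPM against 10.7 ± 2.68 CPM and was the most variable of the 32 tested genes, with the highest heart at 2.75 times the lowest (log2 fold change 0.42, SE 0.26, edgeR quasi-likelihood adjusted p = 0.669).

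The 250 bases before a RefSeq start of Pfkfb2 are shown because this gene came nearest to a call. That start lies inside the annotated gene, which begins at 130729253 on the minus strand. Which start the counted RNA used was not tested. The 250 bases hold an E-box, a motif bound by MYC, USF and related factors. They lie on the minus strand at chr1:130715822-130716071 (RefSeq start, GRCm38.p6), with the E-box CACGTG in capitals, 22 to 17 bases before the start:
Pfkfb2: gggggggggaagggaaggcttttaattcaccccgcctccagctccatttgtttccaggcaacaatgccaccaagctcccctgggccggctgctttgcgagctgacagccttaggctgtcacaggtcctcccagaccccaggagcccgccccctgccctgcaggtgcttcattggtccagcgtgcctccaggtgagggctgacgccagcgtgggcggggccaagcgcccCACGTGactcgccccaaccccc
CACGTG, which reads the same on both strands, was in such a window for 6.02% of 32851 mouse promoters and for 2 of the 30 genes of glucose use that matched the table, Pfkfb2 and Pdk2 (Gpd1, Slc2a4 and Pdp1 were not matched). CACGTG is also one form of the box CACGNG searched further on, and a match of letters is a description only.

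**Figure D2:**
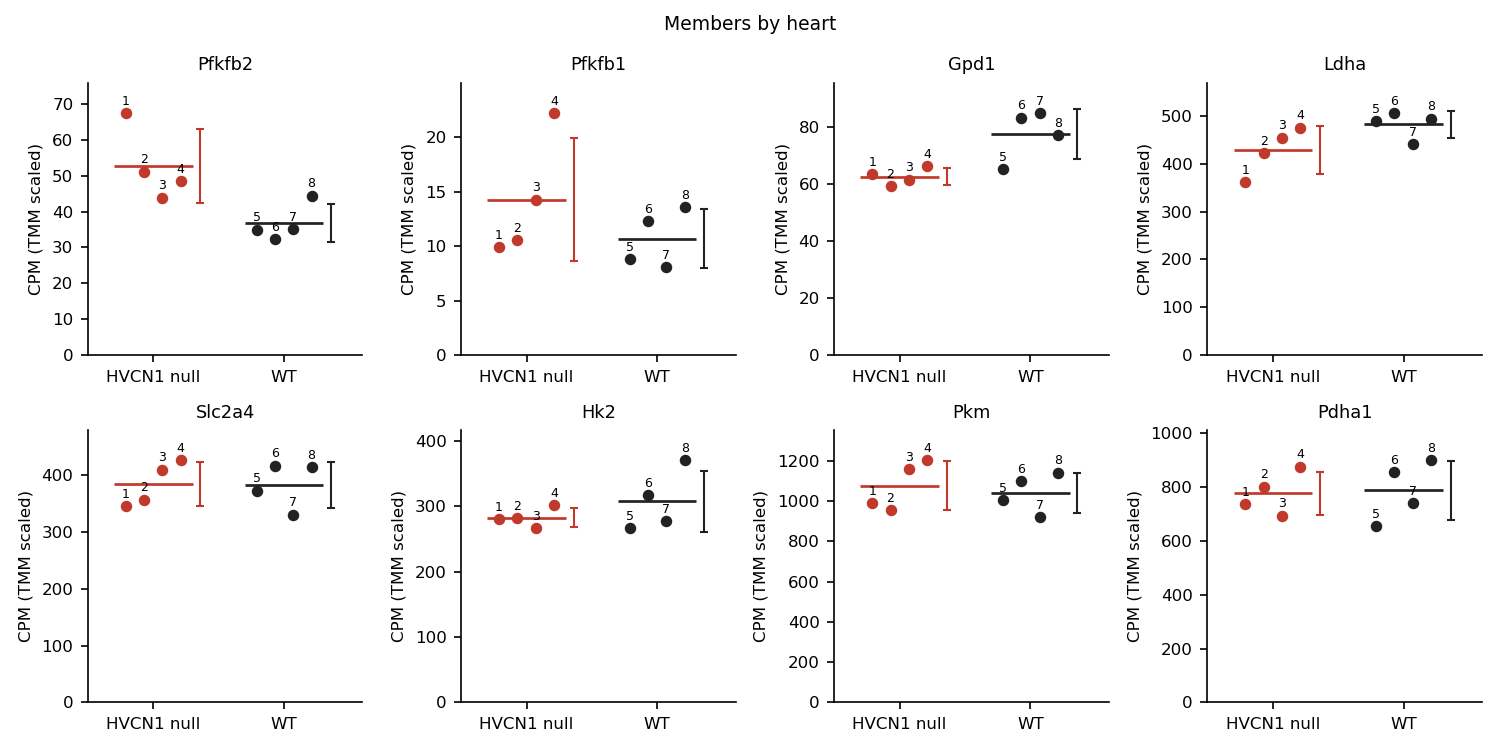
CPM (vertical axis, from 0) in each heart for 8 genes of glucose use, with HVCN1 null hearts 1 to 4 in red and WT hearts 5 to 8 in black, the mean as a line and the SD as a bar. Pfkfb2 overlaps only through heart 3 (43.9 CPM) and heart 8 (44.4 CPM), Gpd1 only through WT heart 5 (65.4 CPM), and the remaining panels overlap more widely.

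The aldolase and triose steps split the sugar and pass its fragments on. Aldoa, the muscle aldolase and the most abundant transcript per length of the 33, was at 2445, 2414, 2899 and 2992 CPM in HVCN1 null hearts and 2577, 2829, 1964 and 2713 CPM in WT hearts. WT heart 7 was the lowest of all, and the log2 fold change was 0.09 (SE 0.14, edgeR quasi-likelihood adjusted p = 0.909). Tpi1, triose phosphate isomerase, had a log2 fold change of 0.16 (SE 0.13).

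Gpd1, cytosolic glycerol-3-phosphate dehydrogenase, draws off triose phosphate towards glycerol 3-phosphate, the backbone of triglyceride. Gpd1 (ENSMUSG00000023019, chromosome 15, 99717515 to 99725005) stood at 63.5, 59.3, 61.7 and 66.4 CPM in HVCN1 null hearts and at 65.4, 83.4, 85.0 and 77.2 CPM in WT hearts. The HVCN1 null hearts were tightly grouped, and WT heart 5 alone fell among them. The log2 fold change was -0.31 (SE 0.10, interval -0.53 to -0.09, edgeR quasi-likelihood adjusted p = 0.239), and the exact permutation p for the difference in mean CPM was 0.0571. With library sizes not scaled neither Gpd1 nor Pfkfb2 overlapped between the groups, each with an exact permutation p of 0.0286.

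Fat cells also express Gpd1 strongly. Of 10 adipocyte markers 7 were tested, all 7 had a log2 fold change below 0 (median -0.62, none a DEG), and their sum was 545 to 625 CPM in HVCN1 null hearts and 634 to 745 CPM in WT hearts, with no marker at 0. The part of fat tissue in the value of Gpd1 was not tested.

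Gapdh, which oxidises glyceraldehyde 3-phosphate and is often used as a reference gene, had the 2nd highest level per length. Gapdh (ENSMUSG00000057666, chromosome 6, 125161715 to 125166467) was at 1693, 2013, 2116 and 2656 CPM in HVCN1 null hearts and at 2297, 2771, 2018 and 2499 CPM in WT hearts. HVCN1 null hearts 1 and 2 were below all WT hearts and heart 3 below all but heart 7, while heart 4 was among the highest. The log2 fold change was -0.18 (SE 0.16, interval -0.52 to 0.17, edgeR quasi-likelihood adjusted p = 0.812). It was -0.083 without HVCN1 null heart 1, -0.10 without WT heart 6 and -0.30 without HVCN1 null heart 4.

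A near-identical copy of Gapdh carried many counts in those same 3 HVCN1 null hearts. Gm13394 (ENSMUSG00000083773, chromosome 2, 28933610 to 28934609, minus strand) is a processed pseudogene, a reverse-copied messenger without introns, and it matches the Gapdh transcript over 1000 bases at 99.9%. It had 12564, 7757, 5135 and 10 counts in HVCN1 null hearts 1 to 4 and 6, 10, 22 and 10 counts in WT hearts 5 to 8. Hearts 1, 2 and 3 therefore stood far above all the rest, and heart 4 stood at the WT level. Gm13394 was a DEG (log2 fold change 9.13, SE 1.56, edgeR quasi-likelihood adjusted p = 0.0211). The exact permutation p for its difference in mean CPM was 0.114.

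The 2 sequences differ by 1 base, A346C, with the base of Gapdh first and the position counted from 1 at the first base of the Gapdh coding sequence, which is also the first base of the copy. The stretch of 61 bases around it is shown because, over the bases they share, only a read across it can tell the genes apart, with the differing base in capitals. In Gapdh it crosses the junction of exons 3 and 4 of 7, all coding, between 125162986 and 125163144 of chromosome 6, and in the copy it lies at chr2:28934234-28934294, both on the minus strand of GRCm38:
Gapdh: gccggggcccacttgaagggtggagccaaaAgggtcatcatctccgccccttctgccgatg
Gm13394: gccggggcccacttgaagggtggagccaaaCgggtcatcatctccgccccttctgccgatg
The annotation holds 74 copies of Gapdh that match it at 95% or more of their bases over at least 80% of their length. Of 71 copies that cover this site, 70 have the base of Gapdh and 1, Gm13394, has the other. The other 73 copies together had 16.3 to 22.7 CPM in HVCN1 null hearts and 16.4 to 22.2 CPM in WT hearts, and of the 15 tested none was a DEG.

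As a share of the CPM of both genes, Gm13394 took 18.2%, 9.34%, 8.44% and 0.0106% in HVCN1 null hearts 1 to 4 and 0.0066% to 0.0288% in the WT hearts. When the 2 were added, the HVCN1 null hearts had 2070.5, 2221, 2311 and 2656 CPM and the WT hearts 2297, 2771, 2018 and 2499 CPM. The difference of the means was -276 CPM (-11.5%, exact permutation p = 0.286) for Gapdh alone and -81.6 CPM (-3.41%, exact permutation p = 0.714) for the sum. With the counts of all copies added to those of Gapdh, the log2 fold change was -0.05 (SE 0.13, interval -0.34 to 0.24, edgeR quasi-likelihood adjusted p = 0.955). Whether reads of Gapdh were counted on Gm13394, or the copy itself was transcribed in those hearts, was not tested, since only counts per gene were used here.

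**Figure D3:**
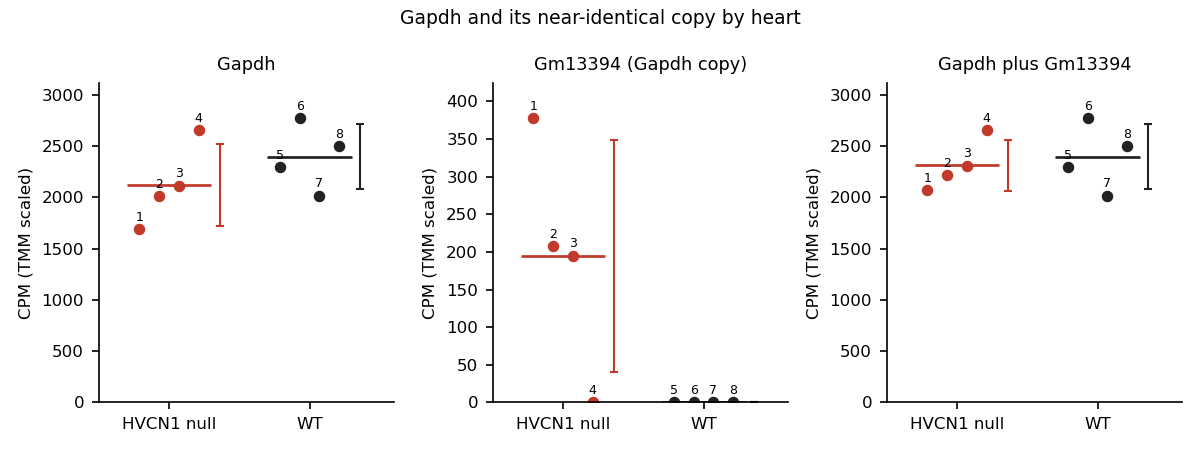
CPM by heart for Gapdh (left), its near-identical copy Gm13394 (middle, on its own scale) and their sum (right), with the mean as a line and the SD as a bar. Gm13394 reaches 195 to 377 CPM in HVCN1 null hearts 1 to 3 and stays under 1 CPM in heart 4 and in the WT hearts, and in the sum the 2 genotypes lie closer together.

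The rest of lower glycolysis makes ATP and ends in pyruvate. Pkm, pyruvate kinase, was at 991, 955, 1160.4 and 1202 CPM in HVCN1 null hearts and 1004, 1098, 921 and 1141 CPM in WT hearts, an overlap over most of the range (log2 fold change 0.05, SE 0.12, edgeR quasi-likelihood adjusted p = 0.949). Phosphoglycerate kinase (Pgk1), the muscle and brain phosphoglycerate mutases (Pgam2 and Pgam1), and the ubiquitous and muscle enolases (Eno1 and Eno3) had log2 fold changes between -0.05 and 0.09. Eno3 had the widest interval of these 5, from -0.37 to 0.42, and its HVCN1 null values ran from 709 to 1158 CPM.

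Lactate dehydrogenase joins pyruvate and lactate, and its heart subunit Ldhb outweighs its muscle subunit Ldha in this tissue. Ldha was at 361, 422, 454 and 475 CPM in HVCN1 null hearts and 489, 505, 440.0 and 494 CPM in WT hearts. Hearts 1 and 2 were the lowest, hearts 3 and 4 lay between WT heart 7 and the other WT hearts, and the log2 fold change was -0.17 (SE 0.11, edgeR quasi-likelihood adjusted p = 0.683). Ldhb was at 1049.85, 1138, 1309.6 and 1452 CPM against 1339, 1455, 1017 and 1388 CPM, with WT heart 7 lowest and WT heart 6 highest (log2 fold change -0.07, SE 0.15, edgeR quasi-likelihood adjusted p = 0.937).

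Glycogen is the sugar store of the muscle cell. Pygm, muscle glycogen phosphorylase, which releases it, was at 1177, 1204, 1398 and 1469 CPM in HVCN1 null hearts and 1148, 1299.9, 1099 and 1372 CPM in WT hearts, with most values in common (log2 fold change 0.09, SE 0.12, edgeR quasi-likelihood adjusted p = 0.886). Gys1, glycogen synthase, had a log2 fold change of -0.15 (SE 0.12).

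Pyruvate enters the mitochondrion through a carrier made of MPC1 and MPC2. Mpc1 was at 189, 222, 202 and 238 CPM in HVCN1 null hearts and 211, 240.1, 172 and 229.7 CPM in WT hearts, so that the groups covered nearly the same range. Its log2 fold change was -0.004 (SE 0.12, edgeR quasi-likelihood adjusted p = 0.998), and 0.01 and 0.04 with RLE scaling and with library sizes not scaled. Its near-identical copies, among them Mpc1-ps, took 25.5 CPM on average, 12.0% of the level of Mpc1, and with their counts added the value was 0.02. Of the annotated exon length of Mpc1, 23.1% is shared with 4930506C21Rik, whose mean was 3.58 CPM. Mpc2 had a log2 fold change of -0.02 (SE 0.15). Apart from Gapdh and Mpc1, 8 genes of the 33 have such copies, and adding these changed no value by as much as 0.01.

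The pyruvate dehydrogenase complex had no DEG among its subunits. Pdha1, its catalytic subunit, was at 736, 801, 694 and 876 CPM in HVCN1 null hearts and 655, 856, 740.5 and 899 CPM in WT hearts, with the HVCN1 null hearts inside the WT range (log2 fold change -0.02, SE 0.13, edgeR quasi-likelihood adjusted p = 0.987, and 0.02 with library sizes not scaled). Its exons share 16.1% of their length with Map3k15, whose mean was 4.21 CPM. Pdk2, an inactivating kinase of the complex, was at 473, 548, 571 and 594 CPM against 489, 512, 433 and 548 CPM. HVCN1 null hearts 3 and 4 were above every WT heart, and heart 1 was below all but WT heart 7 (log2 fold change 0.14, SE 0.11, edgeR quasi-likelihood adjusted p = 0.780). The subunits Pdhb and Dlat had log2 fold changes of 0.07 and -0.20, the kinase Pdk1 0.04, and the activating phosphatase Pdp1 0.13.

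The balance of isoenzymes was compared in a way that library scaling cannot move, as the log2 ratio of 2 genes in the same heart. Of 10 pairs none differed between the genotypes at an exact permutation p under 0.05, adjusted values lay between 0.714 and 0.8, and every pair overlapped. The largest difference among the 9 pairs of tested genes was that of Hk1 to Hk2, with a log2 ratio of -0.29 ± 0.17 in HVCN1 null hearts and -0.44 ± 0.27 in WT hearts (SD, n = 4 each; exact permutation p = 0.400).

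Levels of different genes were compared as CPM per kb of the principal transcript. On that scale 1 form led at nearly every step, mostly the one known from muscle. Slc2a1 made up 3.42% of the 2 glucose carriers in WT hearts (3.64% in HVCN1 null hearts), Pgam1 made up 1.86% of the 2 mutases (2.03%), and Eno1 made up 8.66% of the 2 enolases (9.11%). Ldha made up 21.7% of the 2 lactate dehydrogenase genes in WT hearts (20.4% in HVCN1 null hearts), and Pdk1 made up 11.7% (11.0%) of Pdk1 with Pdk2. For phosphofructokinase, Pfkl made up 9.39% of its sum with Pfkm in WT hearts and Pfkp 3.20%. Hk1 and Hk2 were nearest to each other, with Hk1 at 51.3% in WT hearts (53.9% in HVCN1 null hearts), but at 34.1% in WT hearts when the length was that of all annotated exons, so their order depends on the length used.

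**Figure D4:**
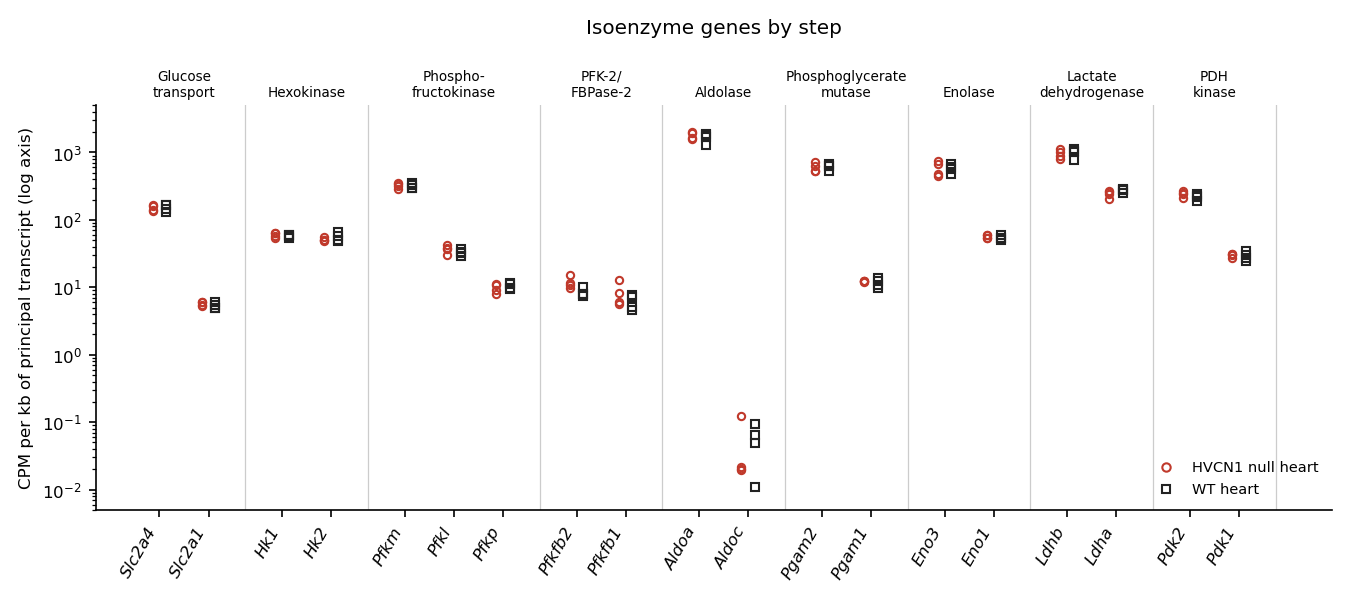
CPM per kb of the principal transcript (vertical log axis) for the isoenzyme genes of 9 steps, with each HVCN1 null heart as a red circle and each WT heart as a black square. At every step the genotypes overlap, and the form named first lies above the others except at hexokinase and PFK-2/FBPase-2, where both forms lie close together.

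In the order of levels over all 8 hearts, Aldoa (1723 CPM per kb) and Gapdh (1590.0) came first, followed by Ldhb (973), Pgam2 (609), Eno3 (584), Pygm (442) and Pkm (435), and Pfkfb1 (7.17), Slc2a1 (5.50) and Aldoc (0.0502) came last. Of the 32 pairs of neighbours in this order, 9 had ranges that did not touch, among them Gapdh over Ldhb and Ldhb over Pgam2. The order of Aldoa over Gapdh held in 6 of 8 hearts, and with the length of all annotated exons Gapdh ranked 4th.

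The level of the whole set varied between hearts within both genotypes. The 32 tested genes together took 1.51% to 1.87% of the counts. The summed level of all 33 ran from 14378 CPM in WT heart 7 to 18961 CPM in HVCN1 null heart 4. WT heart 7 had the lowest value for 14 of the 32 tested genes and HVCN1 null heart 1 for 8, while HVCN1 null heart 4 had the highest for 11. WT heart 7 was also the heart with the highest atrial sum, 10154 CPM, but HVCN1 null heart 1 was among those with little atrial RNA, at 924 CPM. In hearts 1, 4, 6 and 8 alone the median log2 fold change of the genes was -0.07, and in hearts 2, 3, 5 and 7 alone it was 0.11, with none of the genes a DEG in either set. With an atrial score as a covariate none was a DEG either.

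Beyond these 33 genes, 53 further genes of glucose use, glycogen, lactate and their control were listed. Of the 46 tested, 2 were DEGs, Txnip and Pdk4, both lower in HVCN1 null hearts, where 0.399% of all tested genes were DEGs in that direction. At an unadjusted p under 0.05 there were 6 of 46, while 11.0% of all tested genes passed at that level. Among the 6 were Hk3 and Me1 below 0 and Eno2 above. The HVCN1 null and WT values did not overlap for 4 of the 46, Txnip, Pdk4, Me1 and Hk3, while this held for 7.06% of all tested genes. The median over the 46 was -0.05, with 15 above and 31 below 0, and 21 and 25 when library sizes were not scaled. The germ cell and liver genes Pgk2, Pklr, Ldhc and Pdha2 were at 0 in all hearts.

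Txnip encodes a thioredoxin-binding protein that restrains glucose uptake and whose transcription follows glucose. Txnip (ENSMUSG00000038393, chromosome 3, 96557957 to 96561883) was at 279, 363, 209.8 and 347 CPM in HVCN1 null hearts and at 669, 806, 743 and 472 CPM in WT hearts. All HVCN1 null hearts were below all WT hearts, of which heart 8 was the lowest. The means were 299.7 ± 70.01 and 672 ± 145 CPM (SD, n = 4 each), which gave -1.17 as the log2 fold change (SE 0.20, interval -1.62 to -0.71, edgeR quasi-likelihood adjusted p = 0.0241). 

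Pdk4 is the kinase of the pyruvate dehydrogenase complex that fasting and fatty acids induce, and it shuts pyruvate out of oxidation. Pdk4 (ENSMUSG00000019577, chromosome 6, 5483351 to 5496309) was at 203, 265, 154 and 340.1 CPM in HVCN1 null hearts and at 598, 811, 683 and 368 CPM in WT hearts. As for Txnip, WT heart 8 was the lowest of its group and HVCN1 null heart 3 the lowest of all. The means were 241 ± 80.3 and 615 ± 187 CPM (SD, n = 4 each), which gave -1.35 as the log2 fold change (SE 0.28, interval -1.97 to -0.74, edgeR quasi-likelihood adjusted p = 0.0493). Pdk1 and Pdk2, its relatives among the 33, had log2 fold changes of 0.04 and 0.14.

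Neither call held in every setting. For Txnip the adjusted p was 2.54e-05 with edgeR's exact test, 2.39e-05 with edgeR's likelihood ratio test and 1.14e-06 with DESeq2. For Pdk4 these 3 tests gave an adjusted p of 0.000316, 0.000297 and 2.16e-05. Txnip kept its direction in all 19 alternatives and lost the call in 7, among them the fits without HVCN1 null heart 1 (adjusted p = 0.0928, edgeR quasi-likelihood), HVCN1 null heart 3 (0.0556), WT heart 5 (0.0726), WT heart 6 (0.0876) and WT heart 7 (0.0550). Pdk4 also kept its direction in all 19 and lost the call in 12, with RLE scaling (edgeR quasi-likelihood adjusted p = 0.0527), with library sizes not scaled (0.0631), with a CPM above 1 in at least 4 hearts as the filter (0.0551), with limma voom (0.0523), and on leaving out 1 heart in 6 of 8 cases. Those were the fits without HVCN1 null hearts 1 (adjusted p = 0.158, edgeR quasi-likelihood), 2 (0.0924) and 3 (0.121) and without WT hearts 5 (0.116), 6 (0.163) and 7 (0.0909). Both lost it in hearts 1, 4, 6 and 8 alone, where the log2 fold changes were -1.01 and -1.10. They also lost it in hearts 2, 3, 5 and 7 alone, where the changes were -1.31 and -1.62. Over all genes these sets had 71 and 24 DEGs, against 169 with all 8 hearts.

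Markers of other cell types were read beside these genes. The 6 smooth muscle markers were all above 0 (median log2 fold change 0.31, 1 DEG, Acta2), with sums of 534 to 834 CPM in HVCN1 null hearts and 405 to 493 CPM in WT hearts. Of the 8 erythroid markers 7 were below 0 (median -0.99, none a DEG), with sums of 1315 to 8428 CPM against 3044 to 15255 CPM. No marker of either list was at 0, and their part in the values of Txnip and Pdk4 was not tested.

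The promoters of these 2 genes are shown because they were the DEGs of the pathway. In the window of Txnip, chr3:96557707-96557956 on the plus strand, the capitals mark GTAAACA, the reverse strand of the forkhead (FOXO) core TGTTTAC, 121 to 115 bases before the start, and a pair of boxes 85 to 69 bases before it. The pair was searched on both strands as CACGNG, 5 bases of any kind, and CNCGNG, the form of the carbohydrate response element bound by the glucose-sensing factors ChREBP and MondoA. The window of Pdk4, chr6:5496279-5496528 on the minus strand, holds none of the 3 motifs, so none of its letters are in capitals (RefSeq starts, GRCm38.p6):
Txnip: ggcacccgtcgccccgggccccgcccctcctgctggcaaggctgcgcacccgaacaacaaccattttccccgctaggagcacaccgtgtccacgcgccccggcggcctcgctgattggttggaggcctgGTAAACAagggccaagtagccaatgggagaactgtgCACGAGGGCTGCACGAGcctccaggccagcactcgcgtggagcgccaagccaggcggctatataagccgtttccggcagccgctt
Pdk4: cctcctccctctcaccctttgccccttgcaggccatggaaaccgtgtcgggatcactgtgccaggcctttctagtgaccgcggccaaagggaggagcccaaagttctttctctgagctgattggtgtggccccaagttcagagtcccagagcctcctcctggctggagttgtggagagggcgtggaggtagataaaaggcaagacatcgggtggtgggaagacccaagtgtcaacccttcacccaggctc
Over 32851 mouse promoters the box pair was in 0.28% and TGTTTAC in 3.17%, and neither was in any of the 30 matched genes of glucose use. Mlxipl and Mlxip, which encode ChREBP and MondoA, had log2 fold changes of -0.05 (SE 0.09) and -8.2e-05 (SE 0.10).

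Of the further genes, Me1, cytosolic malic enzyme, which makes pyruvate and NADPH, was at 84.9, 88.7, 84.4 and 93.5 CPM in HVCN1 null hearts and at 108, 123, 111 and 130.5 CPM in WT hearts, without overlap (log2 fold change -0.43, SE 0.09, edgeR quasi-likelihood adjusted p = 0.0573). It was a DEG in 5 of 19 alternatives, with library sizes not scaled (adjusted p = 0.0437, edgeR quasi-likelihood), with the atrial score as a covariate (0.0464), with edgeR's exact (0.0152) and likelihood ratio tests (0.0149) and with DESeq2 (0.000585). Fat cells express Me1 as well, and the adipocyte sums given with Gpd1 were also lower in the HVCN1 null hearts than in the WT hearts. Their part was not tested.

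Hk3, the hexokinase of white blood cells, was at 1.20, 1.63, 1.33 and 1.16 CPM in HVCN1 null hearts and at 2.61, 1.95, 1.90 and 1.82 CPM in WT hearts, without overlap (log2 fold change -0.64, SE 0.21, edgeR quasi-likelihood adjusted p = 0.246). All 10 macrophage markers had a log2 fold change below 0, none a DEG, with sums of 321 to 416 CPM against 381 to 558 CPM, and their part in Hk3 was not tested. Eno2, neuronal enolase, was at 4.44, 3.58, 4.86 and 1.33 CPM in HVCN1 null hearts and 2.25, 1.45, 2.30 and 1.59 CPM in WT hearts. Heart 4 was the lowest of all and hearts 1 to 3 the highest (log2 fold change 0.89, SE 0.35, edgeR quasi-likelihood adjusted p = 0.371). Without heart 4 the value was 1.17 (edgeR quasi-likelihood adjusted p = 0.0436), the only 1 of 19 alternatives in which Eno2 was a DEG. Without WT heart 6 it was 0.79 (edgeR quasi-likelihood adjusted p = 0.691). Of the 7 Schwann and neuronal markers tested 5 were above 0, none a DEG, with sums of 25.3 to 33.9 CPM and 17.0 to 30.1 CPM, and their part in Eno2 was not tested.

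**Figure D5:**
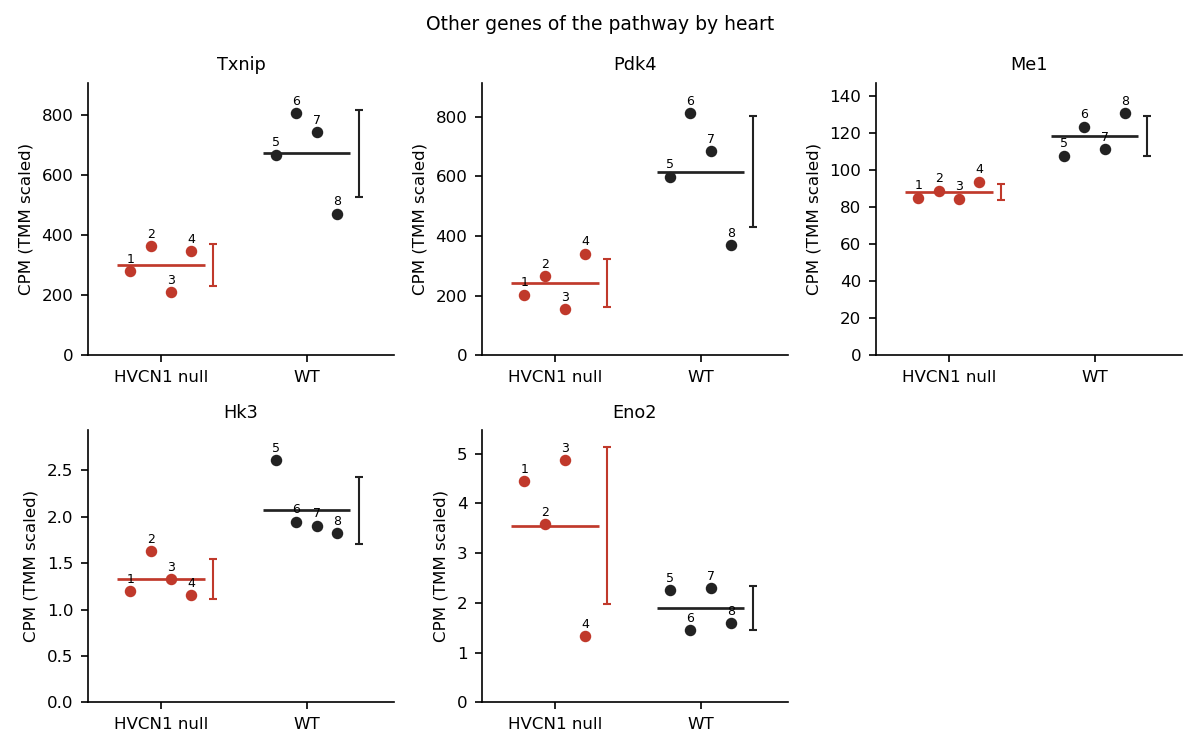
CPM (vertical axis, from 0) in each heart for 5 further pathway genes with an unadjusted p under 0.05, with HVCN1 null hearts 1 to 4 in red, WT hearts 5 to 8 in black, the mean as a line and the SD as a bar. Txnip (209.8 to 363 CPM against 472 to 806 CPM), Pdk4, Me1 and Hk3 do not overlap between the genotypes, while Eno2 overlaps through HVCN1 null heart 4.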

How the data were processed

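RNA-seq counts of 4 HVCN1 null and 4 WT hearts were used. According to the methods and processing notes, the authors selected poly-A RNA, aligned paired reads with STAR and counted them with featureCounts, and the deposited values are raw counts per gene without normalization. The methods name a human build, the processing notes mm10 and GRCm38, and the identifiers are mouse. Strand and multimapping settings were not given in the sources used here. Of 39056 genes, 38872 matched GENCODE M21. CPM, log2 fold changes and adjusted p came from edgeR 4.0.16 under R 4.3.3 (TMM, filterByExpr, quasi-likelihood test) over all 14796 tested genes, with limma 3.58.1 and DESeq2 1.42.0 as alternatives. The test was checked on simulated counts. SE is the log2 fold change over the root of the F statistic. Single genes and ratios (prior count 2) were tested by exact permutation. Copies were found with BLAST+ 2.17.0, and promoters came from RefSeq (GRCm38.p6). Tables and plots used pandas 2.3.3 and numpy 2.4.6 in Python 3.11.15, with matplotlib 3.10.9 for drawing. Total counts ran from 25851255 to 38874640.

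The genes and lists were chosen with earlier results of these data known. Values in every heart were given for genes with an unadjusted p under 0.05 and for 1 or more genes at each step, by a fixed list, while 1 further pathway gene is not reported here, though counts include it. Gm13394, Mlxip and Mlxipl were named after their values were seen. No batch is named. Of the other marker lists, the tested genes were above and below 0 as follows, with no DEG: ventricular 3 and 3, atrial 0 and 9, skeletal muscle 1 and 4 (sums of 2.13 to 10.2 CPM, with Myf6 at 0), endothelial 3 and 5, fibroblast 2 and 6.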

Additional observations from a re-analysis of the deposited data

Results flagged for a closer look

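For 21 genes, each group of 4 hearts was searched for a heart far from the others, 42 groups in all, of which chance alone marks about 1 in 20. One stood out. Hk3, the hexokinase of white blood cells, had 2.61 CPM in WT heart 5, while the other WT hearts had 1.82 to 1.95 CPM, a gap of 0.842 of the range of the group.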

How the results depend on the processing

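Among the 33 genes no DEG was found with other scalings, other filters, voom, the atrial score, copies summed, either set of 4 hearts or any heart left out (0 to 0). There was 1 with edgeR's exact test, edgeR's likelihood ratio test and DESeq2, and 2 passed at an unadjusted p. Over all genes the DEGs numbered 367, 376 and 466 with these 3 tests, 56 at an adjusted p under 0.01, 1625 at an unadjusted p, 71 in hearts 1, 4, 6 and 8 and 24 in hearts 2, 3, 5 and 7, and 71 to 152 with 1 heart left out. Of the further pathway genes 1 was a DEG with RLE scaling, with a CPM above 1 in at least 4 hearts and with voom, 4 with each of edgeR's exact and likelihood ratio tests and DESeq2, 0 at an adjusted p under 0.01, 6 at an unadjusted p, 1 in hearts 1, 4, 6 and 8, 0 in hearts 2, 3, 5 and 7, and 0 to 3 with 1 heart left out. Among the 33 genes, exact permutation of CPM passed for 2 of those given in every heart when libraries were not scaled. With 1 heart left out it passed for 0 to 1 of them. This number was 1 only where a heart through which the groups overlapped was left out, so that they no longer did. Without WT heart 8 the groups of Pfkfb2 did not overlap either, and 0 of these genes passed. The further pathway genes are not in these numbers. With all 8 hearts and scaled libraries, Txnip, Pdk4, Me1 and Hk3 each had an exact permutation p of 0.0286, and Eno2 had 0.143. No isoenzyme ratio passed.

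The sign of small log2 fold changes turned. In hearts 1, 4, 6 and 8 this held for Slc2a4 (-0.090), Pfkm (-0.076), Aldoa (-0.012) and Pkm (-0.014), and in hearts 2, 3, 5 and 7 for Hk2 (0.0068), Ldhb (0.049), Pdha1 (0.093) and Mpc1 (0.14). For Pdha1 it also did with library sizes not scaled (0.025) and the atrial score (0.033), and for Mpc1 with RLE (0.0089), library sizes not scaled (0.041), no filter (0.0025), DESeq2 (0.0090), the atrial score (0.046) and copies summed (0.024). With 1 heart left out the values ran from -0.055 to 0.051 for Slc2a4, -0.019 to 0.088 for Pfkm, -0.0049 to 0.15 for Aldoa, -0.0088 to 0.10 for Pkm, -0.090 to 0.056 for Pdha1 and -0.089 to 0.057 for Mpc1. Without a turn of sign they ran from 0.070 to 0.18 for Slc2a1, -0.18 to -0.014 for Hk2, -0.30 to -0.083 for Gapdh, -0.23 to -0.098 for Ldha, -0.17 to -6.4e-05 for Ldhb, 0.087 to 0.20 for Pdk2 and 0.034 to 0.16 for Pygm. With the length of all exons in place of the principal transcript, the WT shares of Slc2a1, Hk1, Pfkl, Pfkp, Eno1, Ldha and Pfkfb1 were 4.34%, 34.1%, 6.29%, 1.17%, 3.82%, 15.1% and 34.2%. The causes were not tested. The sets of 4 hearts, the summed copies and the exon length were added with the data in view. No paired analysis was possible because the sample labels name no pairs of HVCN1 null and WT hearts.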
